A study of Mus musculus with 6 samples.

Results

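Complement genes were examined in cultured mouse podocytes, the epithelial cells that wrap the glomerular capillaries of the kidney. The group was a list of named genes, chosen with earlier results of these data known, and held 9 genes: C2, C3, C4b, Cfb, Cfi, C1rl, Cd55, Cd59a and Serping1. A gene was read from the probe set that carried its symbol alone in the platform annotation, taking the one with the highest mean over the 6 arrays. Of these, 8 genes could be matched among the 30702 genes tested, and C3 was not analysed here. Expression was measured by Affymetrix microarray in 3 samples of a conditionally immortalized wildtype line and 3 samples of a conditionally immortalized NCK1/2 knockout line. That line is labelled as a knockout of the genes for the adaptor proteins Nck1 and Nck2, and these arrays measure no protein. All cultures were grown on type I collagen and had 10 days of differentiation before RNA was taken. The replicates of each line are described as independent, and each genotype was represented by 1 line, so genotype and other differences between the lines cannot be told apart. All intensities are on the log2 scale of the deposited values, where a difference of 1 is a doubling.

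Complement is a cascade of plasma and surface proteins that marks particles for removal and can insert pores into membranes. In its classical arm the proteases C1r and C1s, held in the C1 complex, cut C4 and C2, whose fragments form a convertase that cleaves C3, and lectin-bound MASP proteases make the same cuts. In the alternative arm factor B takes the place of C2. Host cells are protected by CD55, which disassembles convertases, by CD59, which blocks the pore, and by factor I, a soluble protease that inactivates C3b and C4b, while the C1 inhibitor encoded by Serping1 blocks C1r, C1s and the MASPs. In the kidney, complement deposited beneath podocytes is a feature of several glomerular diseases.

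C2 was higher and C1rl was lower in knockout, and the other 6 measured genes did not pass the test. The test was limma's moderated comparison of 3 knockout with 3 wildtype arrays, fitted over all genes, with a Benjamini-Hochberg adjusted p under 0.05 as the threshold. The 2 called genes were 25% of the 8, against 12% of all genes tested (5.05% higher and 6.90% lower in knockout), and a count this small is not set apart from that background. The share includes C2, whose probe set was chosen by the same knockout values that were tested. The other C2 probe set differed by -0.02 (limma adjusted p = 0.972 in the fit over all probe sets). The median log2 difference of the 8 genes was 0.05, and that of all genes was 0.01. The 3 values of each group did not overlap for C2, C1rl and Cd55, where 27.4% of all genes showed no overlap.

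**Figure D1:**
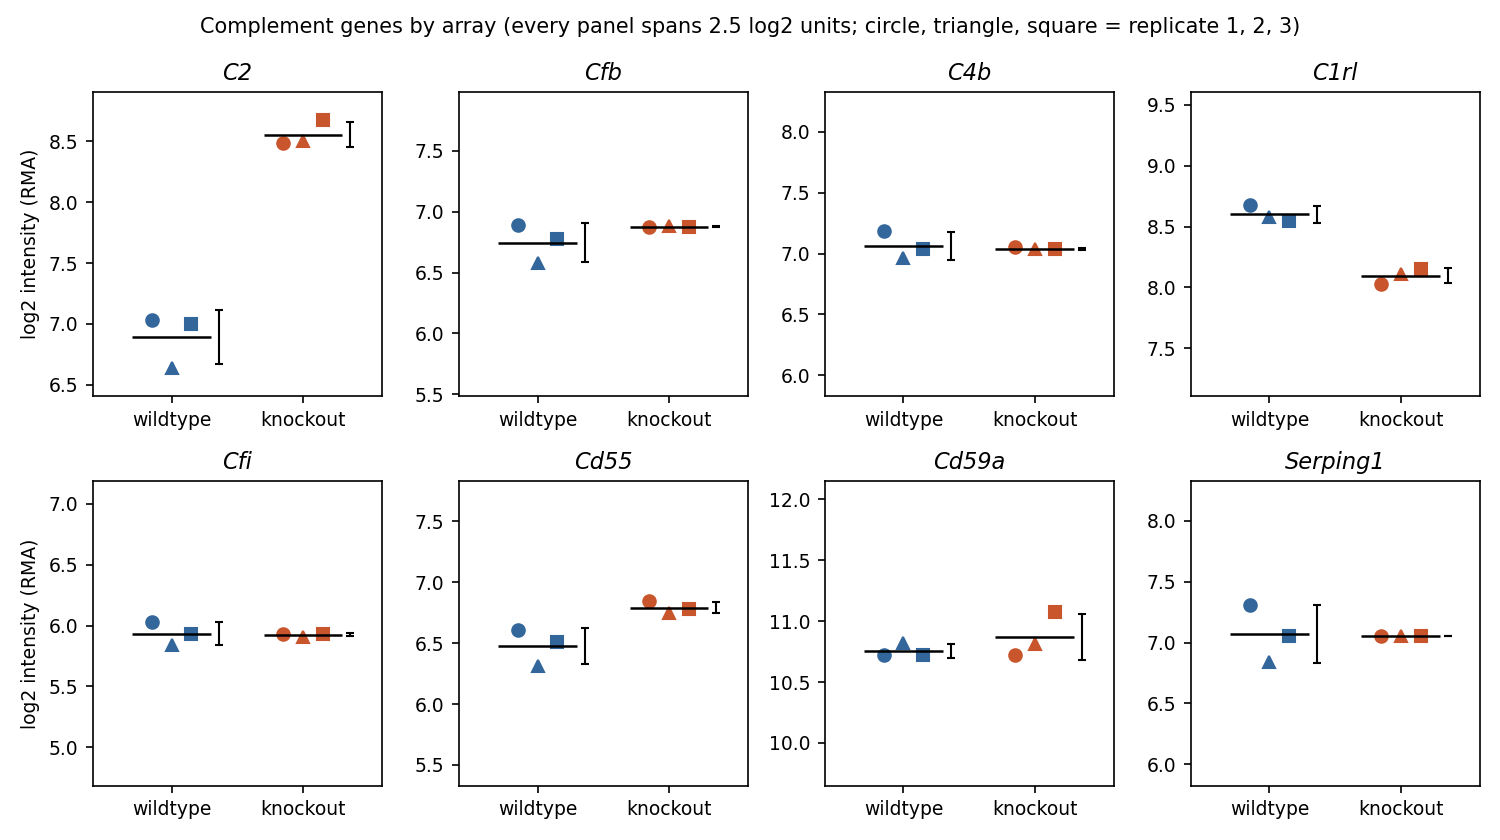
Log2 intensity (y axis) of each of the 8 measured complement genes in the 3 wildtype (blue) and 3 knockout (orange) arrays, with the group mean as a line and the SD as a bar. The groups lie apart for C2, C1rl and Cd55 and overlap in the other 5 panels.

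C2 encodes the protease that becomes the catalytic part of the classical and lectin convertase. It was read from probe set TC1700002817.mm.1 (chromosome 17), which had the higher mean over the 6 arrays only through its knockout values. On it the 3 wildtype arrays gave 7.04, 6.64 and 7.0, and the 3 knockout arrays gave 8.49, 8.50 and 8.67. Every knockout value lay above every wildtype value. The means were 6.89 ± 0.22 and 8.55 ± 0.10 (SD, n = 3 each), so C2 rose by 1.66 on the log2 scale (SE 0.12, 95% confidence interval 1.38 to 1.94, limma adjusted p = 0.000385). The values that were tested thus also chose the probe set. The wildtype mean lay at or below 7.78, the highest mean of the 23 background probe sets of the array, and the knockout mean lay above it. A mean at or below that value is called within the background range here, which does not show that a gene is silent. The size of the C2 difference therefore depends on a wildtype level that was not separated from background. The background range is wide, as the median of the 23 background means was 4.48. Of all 30702 genes, 18825 had both means within it.

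A second C2 probe set, TC1700002818.mm.1, did not show this difference, and in wildtype its mean was the higher of the 2. Its wildtype values were 7.25, 6.78 and 6.94 and its knockout values 7.05, 6.91 and 6.96. The groups overlapped, and both means, 6.99 ± 0.24 and 6.97 ± 0.07 (SD, n = 3), lay within the background range. The log2 difference was -0.02 (SE 0.13, 95% confidence interval -0.33 to 0.29, limma adjusted p = 0.972 in the fit over all probe sets), against 1.66 (adjusted p = 0.00113) for the chosen probe set in the same fit, in which 6.79% of all probe sets passed. Within each array the chosen probe set minus the other gave -0.22, -0.14 and 0.06 in wildtype and 1.44, 1.59 and 1.71 in knockout. The mean of that within-array value was 1.68 higher in knockout, with no overlap between the groups. A two-sided exact permutation test gave p = 0.1, the smallest that 3 arrays against 3 can give. The knockout values that chose the probe set also enter this value, so it is no separate support. Which part of the transcript each probe set covers is not given in the sources used here. With the mean of both probe sets as the gene's value, the C2 difference was 0.82 (limma adjusted p = 0.0049).

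**Figure D2:**
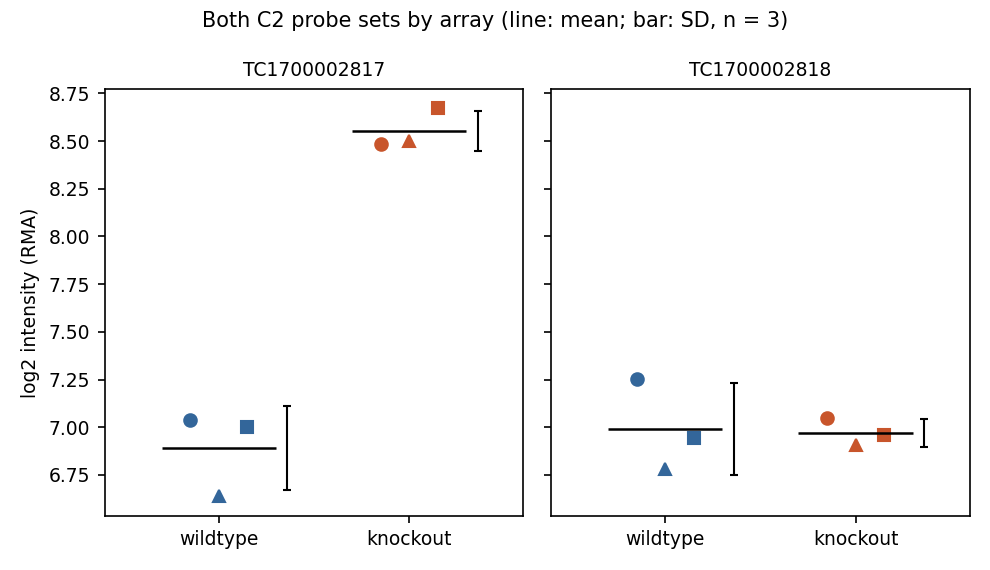
Log2 intensity (y axis, shared) of the 2 probe sets annotated to C2 in the 3 wildtype (blue) and 3 knockout (orange) arrays, with group means as lines and SDs as bars. The knockout values stand at 8.49 to 8.67 on the left probe set and at 6.91 to 7.05, among the wildtype values, on the right one.

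The neighbours of C2 on chromosome 17 did not rise with it. Cfb, which encodes the alternative-pathway protease factor B and is adjacent to C2, had wildtype values of 6.89, 6.58 and 6.78 and knockout values of 6.87, 6.88 and 6.87. The highest wildtype value lay above all the knockout values, and wildtype replicate 2 was the lowest of all 6. The log2 difference was 0.13 (SE 0.08, 95% confidence interval -0.07 to 0.33, limma adjusted p = 0.461). On the other side of C2, Zbtb12, a zinc finger gene, differed by 0.04 (adjusted p = 0.745) and the histone methyltransferase gene Ehmt2 by -0.04 (adjusted p = 0.705). Of 21 measured genes around C2, Cfb and C4b in the class III region of the major histocompatibility complex, 20 did not pass, none was higher, and 1, the thioesterase gene Ppt2, was lower (-0.29, SE 0.05, limma adjusted p = 0.0157). The median difference of the 21 genes was -0.01, and 12% of all genes passed. The Ppt2 call was lost when knockout replicate 1 or 2 was left out (adjusted p = 0.069 and 0.0685).

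C4b encodes complement C4, the other component of the classical and lectin convertase. Its wildtype values were 7.19, 6.96 and 7.03, and its knockout values were 7.05, 7.03 and 7.03. The knockout values lay inside the wildtype range, with a log2 difference of -0.02 (SE 0.07, 95% confidence interval -0.18 to 0.14, limma adjusted p = 0.93). The near-identical paralog C4a, with which probes may be shared, differed by -0.03 (adjusted p = 0.935). Both means of C4b and of Cfb lay within the background range, so on these arrays the interval limits a difference of the signal and the level itself was not separated from background.

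C1rl, a C1r-like protease gene, was lower in knockout. The wildtype arrays gave 8.68, 8.58 and 8.55 and the knockout arrays 8.03, 8.11 and 8.15. All 3 knockout values lay below all 3 wildtype values, and the SDs of both groups, 0.07 and 0.06, were small beside the gap. The mean fell from 8.60 to 8.10, a log2 difference of -0.50 (SE 0.06, 95% confidence interval -0.64 to -0.36, limma adjusted p = 0.00271), or 1.42-fold lower. Both means lay above the background range.

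C1rl is followed on chromosome 6 by the genes for the C1 proteases, C1ra, C1s1, C1rb and C1s2, and these were read beside it. C1s1, which encodes the C1s protease that cuts C4 and C2, had wildtype values of 7.17, 7.53 and 7.22 and knockout values of 6.69, 6.78 and 6.82, and it fell by 0.54 on the log2 scale (SE 0.10, limma adjusted p = 0.018). Its paralog C1s2 had wildtype values of 7.11, 7.49 and 7.14 and knockout values of 6.41, 6.65 and 6.65, and it fell by 0.68 (SE 0.12, limma adjusted p = 0.0146). Neither pair of groups overlapped, and wildtype replicate 2 was the highest array for both. All 4 of these means lay within the background range. Leaving out wildtype replicate 3 (adjusted p = 0.0551) or any 1 knockout array (0.0529 to 0.0811) ended the C1s1 call, and leaving out knockout replicate 1 ended the C1s2 call (0.0596). The C1r genes C1ra and C1rb differed by -0.20 (SE 0.09, limma adjusted p = 0.275) and -0.24 (SE 0.12, adjusted p = 0.319), with overlapping groups, and did not pass. C1ra and C1rb are close copies of each other, as are C1s1 and C1s2, so probes may not tell the members of a pair apart and their values are not independent. On the other side of C1rl, the calsyntenin gene Clstn3 differed by 0.01 (adjusted p = 0.981) and the peroxisomal import receptor gene Pex5 by -0.18 (adjusted p = 0.0828).

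**Figure D3:**
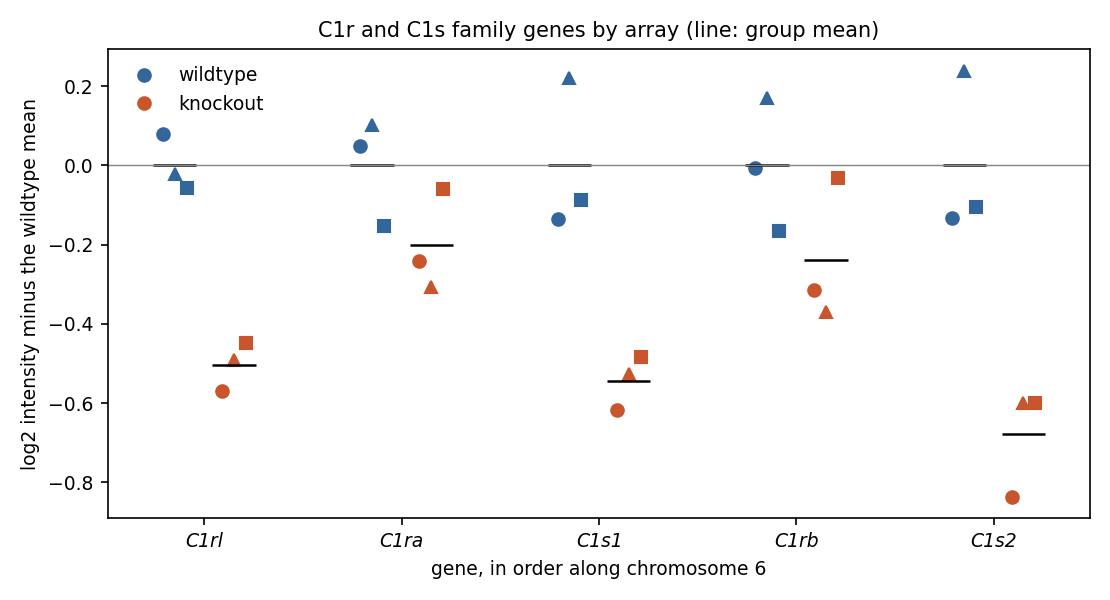
Log2 intensity minus the gene's wildtype mean (y axis) for C1rl and the 4 C1r and C1s genes in their order along chromosome 6, in the 3 wildtype (blue) and 3 knockout (orange) arrays, with replicates 1, 2 and 3 as circle, triangle and square and group means as lines. The groups lie apart for C1rl, C1s1 and C1s2 and overlap for C1ra and C1rb.

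The promoter windows of the 3 genes of this stretch that passed the test are shown because the genes lie near each other and all were lower in knockout. They run from 250 bases before to 50 bases after the annotated start and come from RefSeq on GRCm38.p6, in which 4 of the 9 complement genes, C3, C1rl, Cd55 and Cd59a, had an entry. Capitals mark matches, on either strand, to 5 patterns. These were a loose NF-kB pattern (GGG and CC with any 5 bases between), 2 STAT patterns (TTC and GAA with any 3 or any 4 bases between), an interferon regulatory factor pattern (GAAA repeated with any 2 bases between), and TATAAA. For C1s1, with 2 annotated starts, the window of the downstream start is printed.
C1rl (GRCm38.p6 chr6:124492863-124493162, plus strand): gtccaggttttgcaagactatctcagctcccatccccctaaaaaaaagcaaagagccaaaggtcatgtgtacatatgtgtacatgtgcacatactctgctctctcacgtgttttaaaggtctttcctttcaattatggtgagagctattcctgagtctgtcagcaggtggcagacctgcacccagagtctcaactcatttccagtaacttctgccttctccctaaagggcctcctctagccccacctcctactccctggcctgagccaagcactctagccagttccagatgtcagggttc
C1s1 (GRCm38.p6 chr6:124542272-124542571, minus strand): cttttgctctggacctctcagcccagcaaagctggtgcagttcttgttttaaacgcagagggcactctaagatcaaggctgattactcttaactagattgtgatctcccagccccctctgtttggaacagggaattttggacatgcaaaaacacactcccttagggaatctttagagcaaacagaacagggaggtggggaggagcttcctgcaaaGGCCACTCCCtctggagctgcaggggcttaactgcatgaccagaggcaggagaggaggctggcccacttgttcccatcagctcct
C1s2 (GRCm38.p6 chr6:124636036-124636335, minus strand): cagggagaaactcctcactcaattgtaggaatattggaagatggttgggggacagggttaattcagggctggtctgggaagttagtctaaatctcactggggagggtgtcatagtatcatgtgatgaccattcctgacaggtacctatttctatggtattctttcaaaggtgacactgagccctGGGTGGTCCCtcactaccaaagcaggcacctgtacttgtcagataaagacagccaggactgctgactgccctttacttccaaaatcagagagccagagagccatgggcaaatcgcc

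The C1rl window held no match to any of the 5 patterns. The C1s1 and C1s2 windows each held 1 match to the NF-kB pattern, GGCCACTCCC from base 216 to base 225 and GGGTGGTCCC from base 185 to base 194 of the window, and none to the other 4 patterns. That pattern is loose and occurred in 50.8% of 32851 promoter windows of the same length, where the STAT patterns occurred in 8.30% and 6.95%, the interferon pattern in 3.44% and TATAAA in 13.6%. These matches describe letters only. The 3 windows thus shared no pattern among those searched. The windows of C1ra and C1rb, which did not pass the test, each held TTCCCTGAA, a match to a STAT pattern. The C1rb window also held a match to the NF-kB pattern.

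Of the 4 regulators Cd55, Cd59a, Cfi and Serping1, Cd55 had the largest difference, and it missed the threshold. Cd55 encodes decay-accelerating factor, a membrane protein on a glycosylphosphatidylinositol (GPI) anchor. Wildtype values were 6.61, 6.31 and 6.51, and knockout values were 6.84, 6.75 and 6.78. All knockout values lay above all wildtype values, but the gap between the groups, from 6.61 to 6.75, was narrower than the wildtype range. The log2 difference was 0.32 (SE 0.08, 95% confidence interval 0.12 to 0.51), and the limma adjusted p was 0.0585, running from 0.021 to 0.19 over 14 alternative settings. It passed without wildtype replicate 1 (0.38, adjusted p = 0.04), with the values quantile-normalized again (0.30, adjusted p = 0.021) and with the replicate number as a block (adjusted p = 0.0358). Both means lay within the background range. Its paralog Cd55b differed by 0.11 (adjusted p = 0.561).

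Cd59a, which encodes the GPI-anchored inhibitor of the membrane pore, was above the background range in both lines. It gave 10.72, 10.82 and 10.72 in wildtype and 10.72, 10.81 and 11.08 in knockout. Knockout replicate 3 was the highest, and the other knockout values lay within the wildtype range. The log2 difference was 0.12 (SE 0.10, 95% confidence interval -0.12 to 0.35, limma adjusted p = 0.613), and it was 0.01 without that array. The paralog Cd59b, which lies next to it, differed by 0.03 (SE 0.07, adjusted p = 0.922).

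Because both CD55 and CD59 need a GPI anchor, genes of anchor synthesis and attachment were counted. Of 23 measured, 5 were lower in knockout, none was higher and 18 did not pass, where 6.90% of all genes were lower and 5.05% higher. Both means lay within the background range for 3 of the 23, against 18825 of all 30702 genes, so these shares are no like comparison. In the fit of only genes above the median mean, 4154 of 15351 genes passed in either direction. The median log2 difference of the 23 genes was -0.10, against 0.01 over all genes. Those with the largest change were Pigs of the transamidase complex (-0.55, SE 0.10, limma adjusted p = 0.0135), the inositol acyltransferase gene Pigw (-0.52, SE 0.11, adjusted p = 0.0256) and the ethanolamine phosphate transferase gene Pigg (-0.52, SE 0.11, adjusted p = 0.0271). These calls depended on single arrays. Pigg was lost when any 1 array was left out (adjusted p from 0.0569 to 0.0786), Pigw when any array but knockout replicate 2 was left out (0.0792 to 0.1), and Pigs when wildtype replicate 1 (0.0506), knockout replicate 1 (0.0665) or knockout replicate 2 (0.0651) was left out.

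The soluble regulators Cfi and Serping1 showed no difference past the threshold. Cfi, for factor I, had wildtype values of 6.03, 5.84 and 5.93 and knockout values of 5.93, 5.91 and 5.93, with a log2 difference of -0.01 (SE 0.06, 95% confidence interval -0.15 to 0.13, limma adjusted p = 0.972). Serping1, for the C1 inhibitor, had wildtype values of 7.31, 6.84 and 7.06 and the same deposited value, 7.06, in all 3 knockout arrays, with a difference of -0.01 (SE 0.11, 95% confidence interval -0.29 to 0.27, adjusted p = 0.983). Identical values can arise in the probe summary and understate the spread of that group. All means of both genes lay within the background range. The C1 inhibitor also restrains plasma kallikrein, and 9 contact and kinin genes were measured. Of these 1 was higher, the urokinase gene Plau (0.44, SE 0.06, limma adjusted p = 0.00528), none was lower and 8 did not pass. That count is near the 12% of all genes that passed, and 6 of the 9 lay within the background range in both lines.

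**Figure D4:**
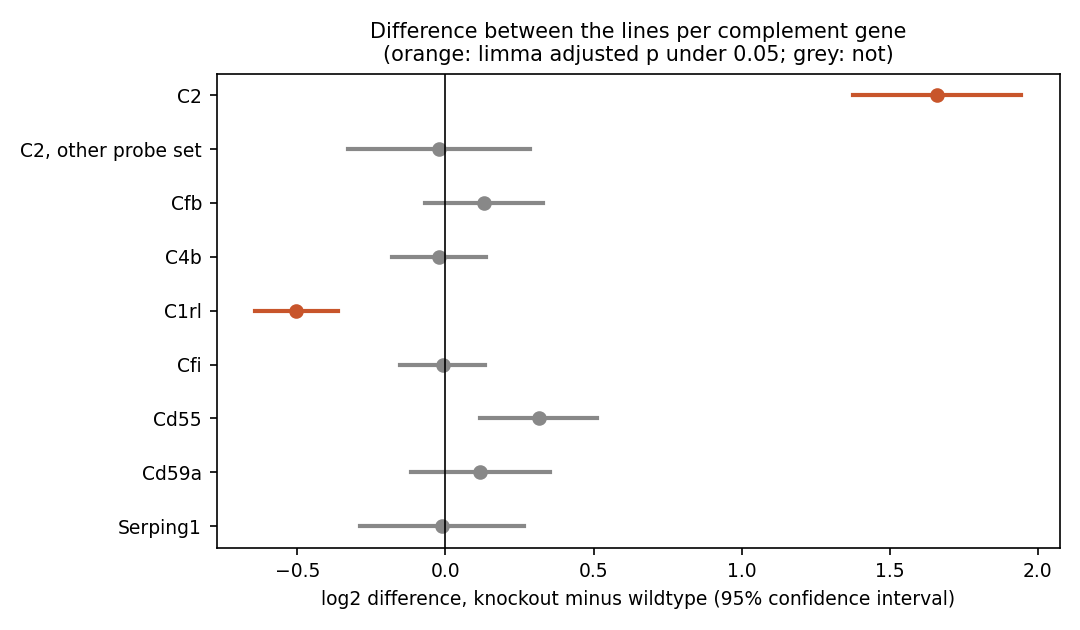
Log2 difference, knockout minus wildtype (x axis), with its 95% confidence interval, for the 8 measured complement genes and the other C2 probe set, whose interval comes from the fit over all probe sets. The intervals of C2 (1.38 to 1.94), C1rl (-0.64 to -0.36) and Cd55 (0.12 to 0.51) lie off 0, and C2 and C1rl (orange) passed the adjusted threshold.

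The array values had a shared pattern beside the genotype. Wildtype replicate 1 was the highest wildtype array for 7 of the 8 genes and wildtype replicate 2 the lowest for 6, against 52.9% and 49.7% of all genes. The knockout SD was below the wildtype SD for 7 of the 8 genes, against 64.2% of all genes. In the 8 genes the SD ran from 0.06 to 0.24 in wildtype and from 0 to 0.19 in knockout. The exceptions to the wildtype order were Cd59a, with replicate 2 highest, and C1rl, with replicate 3 lowest. The 5 measured hepatocyte markers (Alb, Apoa1, Ttr, Apob and Fgb), all within the background range, had the same wildtype order. Their knockout SD was also below the wildtype SD, so the pattern is not particular to complement genes. Without wildtype replicate 1 the differences of C4b (0.04), Cfi (0.04) and Serping1 (0.11) changed sign, and none of them passed.

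Of the other complement genes, 50 of a list of 54 were measured. In knockout 3 were higher and 5 lower, and 42 did not pass, so that 16% were called against 12% of all genes, with a median log2 difference of 0.001. The count was 4 without wildtype replicate 3 or without knockout replicate 1, 5 without knockout replicate 2, and 6 without each of the other arrays. Both means lay within the background range for 36 of the 50, and for 18825 of all 30702 genes.

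The rises with the largest size were in Masp1 and Colec12. Masp1 encodes a protease that initiates the lectin pathway and also MASP-3, which activates factor D of the alternative pathway, and values read per gene do not tell these products apart. It had values of 9.26, 9.33 and 9.18 in wildtype and 11.28, 11.25 and 11.37 in knockout, and it rose by 2.04 on the log2 scale (SE 0.06, limma adjusted p = 1.47e-05). The 2 groups were far apart and both were above the background range. Colec12, a scavenger receptor of the collectin family, had values of 6.48, 6.20 and 6.40 in wildtype and 8.47, 8.65 and 8.63 in knockout, and it rose by 2.22 (SE 0.09, adjusted p = 4.08e-05) from a mean within the background range. Masp2, for the lectin-pathway protease that cuts C4 and C2, was lower by 0.21 (SE 0.05, adjusted p = 0.0407), a call lost when any 1 array was left out (adjusted p from 0.0621 to 0.137). The C1q genes C1qa, C1qb and C1qc differed by -0.03, 0.09 and 0.04 with overlapping groups, all within the background range, and did not pass.

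The remaining called genes were Clu, C4bp and Cpn1. Clu, which encodes clusterin, an inhibitor of pore assembly and a chaperone, had values of 10.88, 10.81 and 10.65 in wildtype and 9.49, 9.47 and 9.96 in knockout, and it fell by 1.14 (SE 0.14, limma adjusted p = 0.00383). The knockout values were all lower, with replicate 3 nearest to wildtype. C4bp, for the C4b-binding cofactor of factor I, had values of 11.05, 11.09 and 11.02 in wildtype and 10.59, 10.52 and 10.86 in knockout. It fell by 0.39 (SE 0.09, adjusted p = 0.0394), a call lost when any array but knockout replicate 3 was left out (adjusted p from 0.112 to 0.142). Cpn1, for the catalytic subunit of carboxypeptidase N, which trims the anaphylatoxins, rose by 0.63 (SE 0.10, adjusted p = 0.00925) from a mean within the background range, and this call was lost without wildtype replicate 3 (adjusted p = 0.0514).

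The remaining surface regulators and receptors did not pass. Cr1l, which encodes Crry, the rodent regulator that acts on C3 and C4 convertases, was at 9.46 ± 0.05 in wildtype and 9.47 ± 0.08 in knockout (SD, n = 3), a log2 difference of 0.01 (limma adjusted p = 0.982). Cd46, for membrane cofactor protein, differed by -0.31 (SE 0.15, adjusted p = 0.275), with wildtype replicate 2 at 7.62 well above the other arrays. The complement C5 gene Hc, the properdin gene Cfp and the anaphylatoxin receptor genes C3ar1 and C5ar1 differed by -0.005, -0.02, 0.002 and -0.01, with adjusted p from 0.917 to 0.998. Hc, C3ar1 and C5ar1 lay within the background range in both lines.

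**Figure D5:**
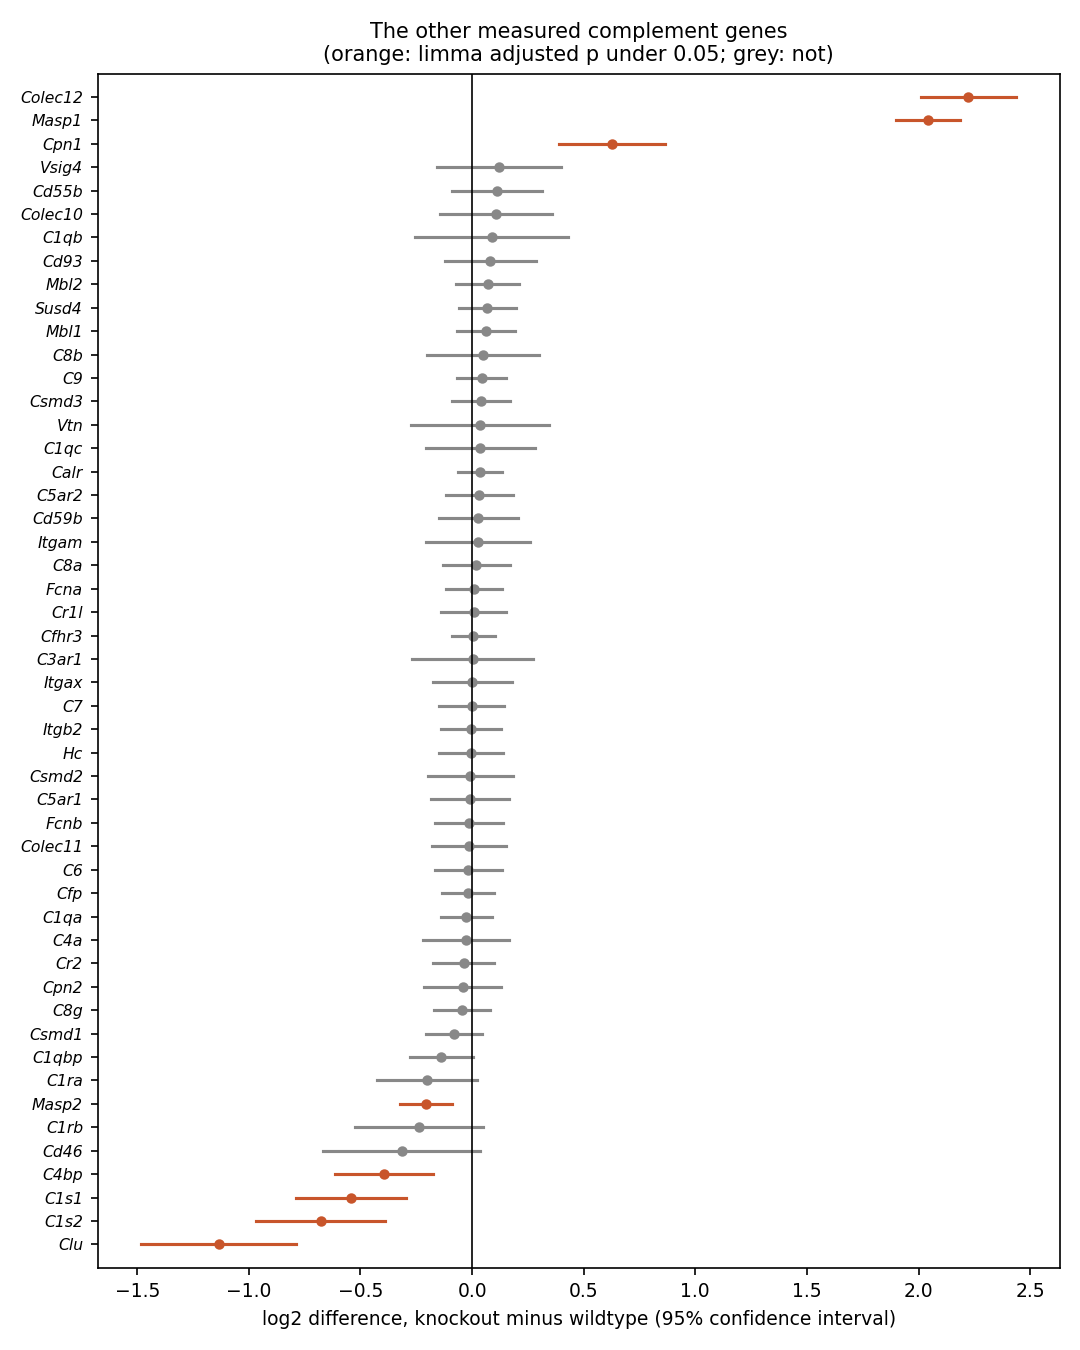
Log2 difference, knockout minus wildtype (x axis), with its 95% confidence interval, for each of the 50 other measured complement genes, sorted by the difference. The 8 genes in orange passed, from Clu at -1.14 to Colec12 at 2.22, and most of the rest lie near 0.

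Transcription of complement genes is known to respond to interferon and to inflammatory cytokines, and genes of both responses were counted beside them. Over all genes 12% passed, 5.05% higher and 6.90% lower. Of 23 measured interferon-response genes 2 were higher, 8 lower and 13 did not pass, with a median log2 difference of -0.02. The antiviral genes Ifit3 (-1.57, SE 0.08, limma adjusted p = 0.000125) and Bst2 (1.77, SE 0.20, adjusted p = 0.00269) went opposite ways, and the chemokine gene Cxcl10 was lower (-1.24, SE 0.08, adjusted p = 0.000247). Of 23 acute-phase and NF-kB response genes 3 were higher, 5 lower and 15 did not pass, with a median of -0.004. The chemokine gene Ccl2 (-1.71, SE 0.10, adjusted p = 0.000212) and the interleukin 1 receptor gene Il1r1 (-0.87, SE 0.06, adjusted p = 0.000466) were lower, and Cebpd, a transcription factor gene of the acute-phase response, was higher (1.64, SE 0.07, adjusted p = 5.75e-05). All 3 knockout arrays held the same deposited value for Ifit3 (8.69) and for Il1r1 (9.98), which can understate the spread of that group. The part of the interferon, acute-phase and NF-kB response genes in the C2 and C1rl differences was not tested.

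The cell identity behind these values was checked with marker lists, beside the 12% of all genes that passed (5.05% higher and 6.90% lower). Of 9 measured podocyte markers, Actn4 was higher and 8 did not pass, and 4, Nphs1 among them, had both means within the background range. In cultures of this kind, fewer cells of a type and less RNA per cell cannot be told apart. Macrophages are a major source of complement. Of 12 macrophage and monocyte markers 9 lay within the background range in both lines, Ptprc and the 3 C1q genes among them, while Csf1r (-1.21) and Cd14 (-0.73) were lower and Cd68 (0.57, limma adjusted p = 0.0471) was higher. The Cd68 call was lost when any array but knockout replicate 3 was left out (adjusted p from 0.0515 to 0.173). The mean level of the macrophage and monocyte list, whose C1q genes are also among the other complement genes, ran from 7.0 to 7.17 in the wildtype arrays and from 6.95 to 7.04 in the knockout arrays. All 5 hepatocyte, 4 lymphocyte and 6 endothelial markers measured lay within the background range in both lines and did not pass. Of 7 fibroblast and mesangial markers 3 were higher, Pdgfrb, Col1a1 and Dcn, and 4 did not pass. Those 4, Col3a1, Lum, Itga8 and Des, had both means within the background range. The mean level of the list, in which Dcn had the largest rise (4.33), ran from 6.69 to 6.83 in wildtype and from 8.17 to 8.27 in knockout. Of 6 proximal tubule markers 3 were lower, Aqp1 (-3.50), Cubn (-0.56) and Lrp2 (-0.36), and 3 did not pass. Both means of 4 of the 6 lay within the background range. The mean level of the list, in which Aqp1 had by far the largest fall, ran from 8.96 to 9.03 in wildtype and from 8.26 to 8.29 in knockout. The part of these marker genes in the complement differences was not tested.

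Of the targeted genes, Nck1 was lower in knockout by 0.51 (SE 0.07, limma adjusted p = 0.00391) and Nck2 differed by -0.24 (SE 0.07, adjusted p = 0.0941) without passing, both with no overlap between groups. The lines also differed in Xist, the RNA of the inactive X chromosome (12.19 in wildtype and 6.01 in knockout), and in the Y-linked Uty (5.21 and 9.90) and Kdm5d (6.12 and 8.96), but the Y-linked Eif2s3y, within the background range in both, was at 4.49 and 4.50 (limma adjusted p = 0.937). Over all genes 3669 passed, and array medians ran from 7.08 to 7.22. The number of arrays limits the precision.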

How the data were processed

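Total RNA of 6 podocyte cultures, 3 per line, was measured on Affymetrix arrays. The deposited log2 intensities come from RMA as run in affy 1.44.0 (submitters' processing notes). Probe definitions and filters: not given in the sources used here. Of 72688 probe sets, 186 controls were left out, 31258 named 1 gene after repeated and older symbols were merged through a GRCm38.p6 gene table, 1492 carried several names and stayed unnamed, and 39752 were unnamed here. One probe set per gene, the highest mean of 6 arrays, gave 30702 genes.

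Differences between the lines were tested in limma 3.58.1 under R 4.3.3 (lmFit and eBayes, two-sided, no covariate, no filter), with Benjamini-Hochberg adjustment over all genes at 0.05. Errors are SDs over 3 arrays or limma standard errors. The scripts were tested on simulated data. The members and lists were chosen with earlier results of these data known. The text names all members, their paralogs, leading activators, regulators and receptors whatever their values (Cd46, Cr1l, Hc, C3ar1, C5ar1 and Cfp among them), and, by the largest change past the threshold, 5 further complement genes and up to 3 of each other list. Masp2, the C1q genes, neighbours, exceptions and marker genes were named after their values were seen. Python 3.11.15 and matplotlib 3.10.9 made the figures.

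Arrays with the same replicate number did not deviate together in every pair, so the numbers were not taken to pair the samples. The correlations of deviations were 0.35, 0.28 and 0.04, against -0.34 to 0.05 between arrays of different number. A shared batch for replicates 1 and 2 was not tested, and the replicate block is given as an alternative. The alternatives were the replicate number as a block, leaving out each array, only genes above the median mean, a trended and robust variance, repeated quantile normalization, chromosome medians taken off, the mean of a gene's probe sets, all probe sets fitted, genes tied within a group left out, and a threshold of 0.01.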

Additional observations from a re-analysis of the deposited data

How the results depend on the processing

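C2 and C1rl kept their direction and passed under all 15 alternatives. On the log2 scale C2 ran from 0.82 to 1.73 and C1rl from -0.53 to -0.46. For C2 every alternative used the probe set that its knockout values chose, alone or averaged with the other. The other probe set by itself showed no difference (-0.02), so the alternatives do not remove the dependence of the C2 call on the probe set. The filter at the median mean is no support for C2 or Colec12, which it kept only through their knockout values. The count of called members was 2 or 3 of 8, the third being Cd55. Leaving out 1 array in turn gave 2 to 3 members, 4 to 6 of the other complement genes and 2079 to 3388 of all genes, and the threshold of 0.01 gave 4 other complement genes and 1948 genes. With leaving out 1 array, C4b ran from -0.072 to 0.0404, Cfi from -0.0578 to 0.0395 and Serping1 from -0.13 to 0.11, so that these differences have no settled sign. The replicate block gave 3 members, 7 other complement genes and 3765 genes; with it C2 and C1rl passed at adjusted p of 0.000367 and 0.00972, while Masp2 did not (0.0904). The filter at the median mean left 3 of the 8 members to test, and leaving out tied genes left 7. Masp2 missed the threshold in 11 of 15 alternatives and C4bp in 7, while Masp1, Colec12 and Clu passed in all. Signals within the background range limit what can be said of Cfb, C4b, Cfi, Cd55 and Serping1, and of the wildtype level of C2.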
